A study of Mus musculus with 7 samples.

Results

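The enzymes that build, sulphate and trim heparan sulphate and chondroitin sulphate were measured as messenger RNA in the ventrolateral ventromedial hypothalamus (VMHvl) of ovariectomized female mice. The set holds 41 genes of the 48321 gene symbols in the deposited count files, and all 41 were found in every library. The genes were chosen by symbol from the known enzyme families, and the list was drawn up with the difference between the treatment groups in these same mice already in view. Their differences between groups are therefore given as a description, and no count over the list is read as support for an effect on the pathway. Ovariectomy, which removes the main source of circulating estrogen, was common to both groups. One group of 3 mice received vehicle and the other, of 4 mice, received 1 µg of estradiol benzoate (EB), an ester of estradiol, under the skin. Tissue was dissected by hand 4 hours after the injection, and each library came from a single mouse. The animals had a mixed background with 129/Sv ancestry and descended from a line with a floxed Esr1 allele. No Cre driver and no age is named in the labels.

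Heparan sulphate and chondroitin sulphate are long sugar chains carried by proteoglycan core proteins at the cell surface and in the extracellular matrix. A xylosyltransferase starts the chain on the core protein, EXT or chondroitin synthase enzymes extend it, and sulphotransferases and epimerases then modify it in the Golgi. The pattern of sulphate groups decides which growth factors, guidance cues and receptors a chain binds. In adult brain, heparan sulphate shapes synaptic adhesion and growth factor signalling, and chondroitin sulphate is a main component of the perineuronal nets around some neurons.

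The RefSeq promoter table for the GRCm38.p6 assembly held 40 windows for 33 of the 41 genes, each 300 bases long and running from 250 bases before to 50 bases after an annotated start. The 4 windows below belong to 4 of the 6 genes that were higher in every EB mouse than in every vehicle mouse. They are shown so that the start regions of these genes can be compared. Of the same 6 genes, Ext1 had no window, and the window of Chst8, with 4 GC boxes and no GGTCA core, is not shown. Chst15 and Ndst3 each had 2 annotated starts, of which 1 is shown. Capitals mark GGTCA, the core repeated in estrogen response elements, and the GC box GGGCGG, a binding sequence of Sp1-type factors, on either strand.

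Chst15, chr7:132317179-132317478, minus strand: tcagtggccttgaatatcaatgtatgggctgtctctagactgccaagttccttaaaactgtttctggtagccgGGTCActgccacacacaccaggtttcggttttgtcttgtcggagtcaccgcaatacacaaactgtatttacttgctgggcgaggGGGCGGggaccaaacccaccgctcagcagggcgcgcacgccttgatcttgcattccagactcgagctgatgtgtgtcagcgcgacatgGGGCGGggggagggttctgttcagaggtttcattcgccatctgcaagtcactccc

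Chst11, chr10:82985247-82985546, plus strand: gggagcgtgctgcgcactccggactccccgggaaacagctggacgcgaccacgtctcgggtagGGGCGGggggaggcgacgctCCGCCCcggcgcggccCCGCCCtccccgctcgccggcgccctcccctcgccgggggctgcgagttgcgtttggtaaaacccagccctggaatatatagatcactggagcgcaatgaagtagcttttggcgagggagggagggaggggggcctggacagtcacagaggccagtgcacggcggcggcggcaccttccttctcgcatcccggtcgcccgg

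Chst1, chr2:92600867-92601166, plus strand: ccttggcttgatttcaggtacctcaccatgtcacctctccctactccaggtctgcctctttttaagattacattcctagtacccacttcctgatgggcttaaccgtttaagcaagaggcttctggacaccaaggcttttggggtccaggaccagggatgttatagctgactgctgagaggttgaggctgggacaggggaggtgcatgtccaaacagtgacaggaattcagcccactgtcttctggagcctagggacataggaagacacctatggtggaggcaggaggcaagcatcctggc

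Ndst3, chr3:123619401-123619700, minus strand: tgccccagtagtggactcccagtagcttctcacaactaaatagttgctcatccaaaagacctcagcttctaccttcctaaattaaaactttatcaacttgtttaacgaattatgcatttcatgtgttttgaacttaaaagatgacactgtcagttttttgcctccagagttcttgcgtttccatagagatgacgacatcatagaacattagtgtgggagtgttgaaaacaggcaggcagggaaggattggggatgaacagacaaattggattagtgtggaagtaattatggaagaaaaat

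The 4 windows differed in base composition, from 71.0% G and C for Chst11 to 39.0% for Ndst3. The Chst15 window held 1 GGTCA core, at position -177 from the annotated start, and 2 GC boxes, and that of Chst11 held 3 GC boxes. The other Chst15 window held 2 GC boxes and no GGTCA core. The windows of Chst1 and Ndst3, the second window of Ndst3 included, held neither motif. The RefSeq starts of Chst1 and Ndst3 lie inside the gene spans of the GENCODE annotation, so other transcripts of both genes begin elsewhere. The full palindromic estrogen response element, which is GGTCA, 3 free bases and TGACC and so contains the core, was in 0 of the 40 windows and in 23 of 32851 windows of all genes (0.07%). The core GGTCA (or TGACC) was in 13 of the 40 windows (32.5%) and in 40.5% of all windows. The GC box GGGCGG (or CCGCCC) was in 26 of the 40 windows (65.0%) against 35.7% of all, and the median G and C content of the windows was 66.2% against 52.7%. A match describes letters in a short window and not a bound site.

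Library totals ran from 21037303 to 33302293 counts. CPM here means counts scaled to a common library size with TMM factors. The labelled region was checked against its markers. Fezf1 stood at 108 to 152 CPM and Esr1 at 160 to 317 CPM, whereas Nr5a1, a transcription factor that defines the ventromedial nucleus, was low at 0.927 to 3.51 CPM. The summed CPM of 12 mural cell and fibroblast markers was 716 in vehicle 1 against 181 to 428 in the other libraries, and EB 4 had the highest sum of 7 pituitary markers, 29.4 CPM against 2.84 to 14.6. Mice are numbered within a group for naming alone. In dissected tissue, fewer cells of a type and less RNA per cell cannot be told apart.

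Levels were compared between genes as CPM per kilobase of merged exons. Lengths came from GENCODE M21, which may differ from the annotation behind the counts, since that is not given in the sources used here. The order of genes and the shares per kilobase below rest on those lengths. Hs3st4, which adds the rare 3-O-sulphate to heparan sulphate, was highest and averaged 40.4 CPM per kilobase over the 7 mice. Chst2, a sulphotransferase acting on N-acetylglucosamine, followed at 24.2 CPM per kilobase. Chst1, which sulphates galactose in keratan sulphate, averaged 24.0 and Glce, the epimerase that turns glucuronic into iduronic acid, 23.0 CPM per kilobase. The ranges over mice of Chst2 (22.1 to 30.6), Chst1 (18.7 to 29.2) and Glce (18.9 to 26.0) overlapped, so the order of these 3 genes is not resolved. In all, 10 genes averaged at least 10 CPM per kilobase and 26 lay from 1 to below 10. The 5 genes below 1 CPM per kilobase were Chsy3 (0.694), Hs3st2 (0.546), Chst14 (0.483), Chst3 (0.246) and Chst7 (0.195). The ranges over mice of Chst14 (0.105 to 0.735), Chst3 (0.0713 to 0.600) and Chst7 (0.106 to 0.363) overlapped, and with vehicle Chst14 (0.287) averaged less than Chst3 (0.381), so the order of these 3 genes is not resolved. The ranges of Chsy3 (0.533 to 0.964) and Hs3st2 (0.401 to 0.737) overlapped each other and that of Chst14. The order of Chsy3, Hs3st2 and Chst14 is thus not resolved either. Chst3 and Chst7 place sulphate on carbon 6 of chondroitin, whereas Chst11, which sulphates carbon 4, averaged 11.9 CPM per kilobase.

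**Figure D1:**
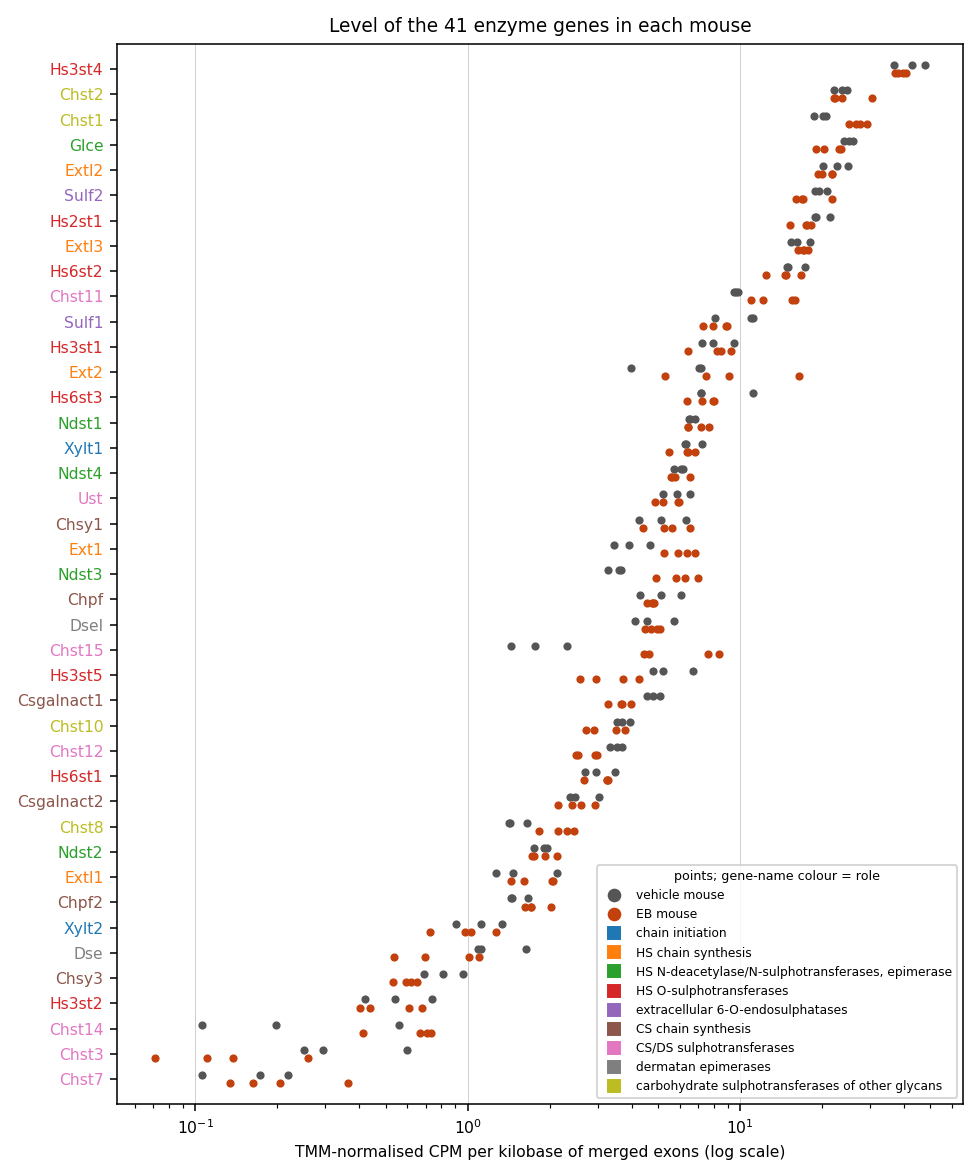
Level of each of the 41 enzyme genes, in TMM-normalised CPM per kilobase of merged exons on a log axis, with 1 point per mouse (3 vehicle and 4 EB mice, by colour) and gene names coloured by role. Hs3st4 is highest, at 40.4 CPM per kilobase on average, Chst7 has the lowest average, 0.195, and the vehicle and EB points of Chst15 are separate.

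Chst15, Ndst3, Ext1 and Chst1 rose with EB, and 0 of the 41 genes passed the test as lower. These 4 genes are 9.76% of the set, beside 0.952% of the 18387 genes tested (0.745% higher and 0.207% lower), at an adjusted p under 0.05 in edgeR's quasi-likelihood test. They act on different chains: Ext1 and Ndst3 on heparan sulphate, Chst15 on chondroitin sulphate and Chst1 on keratan sulphate. An unadjusted p under 0.05 was found for 15 genes (36.6%, against 9.04% of all genes), 7 higher and 8 lower with EB. The vehicle and EB mice did not overlap for 12 genes (29.3%, against 9.10% of all genes). Of these, 6 were higher with EB (5.11% of all genes) and 6 lower (3.99% of all genes). The list was drawn up with this contrast known, so nothing is read from these shares. The median log2 change over the 41 genes was -0.06, beside -0.01 over all genes. Of the 41 genes 18 were on the positive side, beside 8906 of all 18387 genes tested. DESeq2, which called 2.39% of its genes, called 6 of the set, adding Chst11 as higher and Hs3st5 as lower. Limma-voom, which called 0.816% of all genes, called 4. Of the 37 genes not called, 22 had a 95% interval that lay within a 1.5-fold change in either direction, so larger changes of those 22 were outside their intervals.

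**Figure D2:**
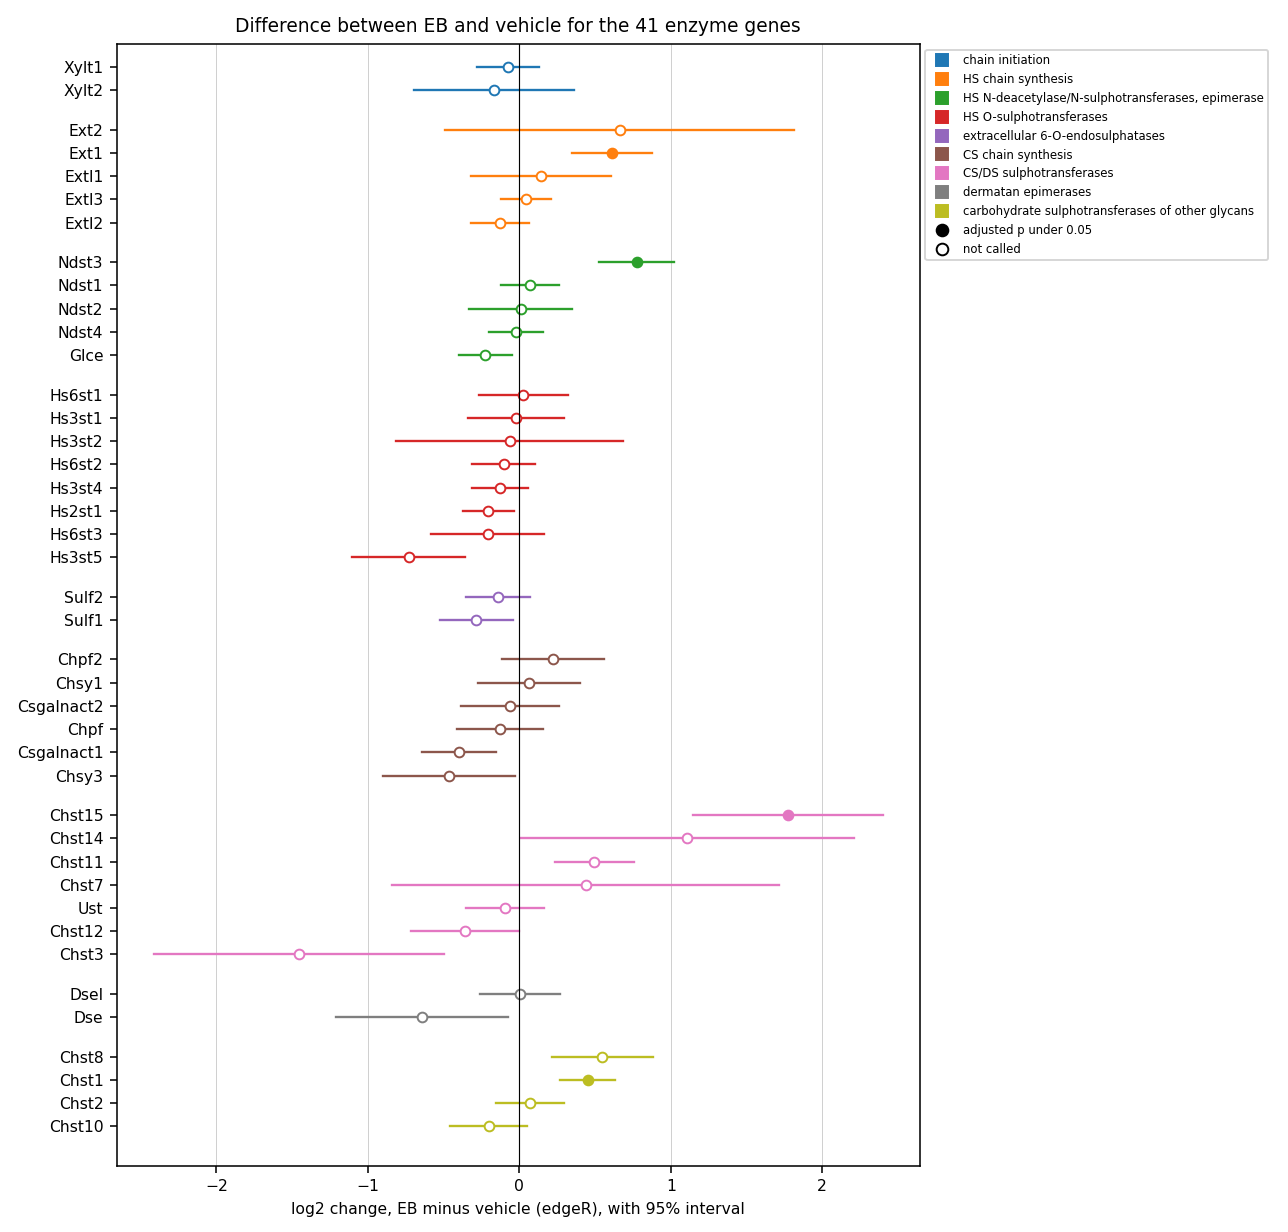
Log2 change from vehicle to EB of each enzyme gene in the edgeR fit, with its 95% interval, grouped and coloured by role; filled points are the genes with an adjusted p under 0.05. Chst15 has the largest positive change, 1.78, and the wide intervals of Chst3, Chst7 and Chst14 belong to genes below 1 CPM per kilobase.

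Neither gene of chain initiation was called by any of the 3 tools (edgeR, limma-voom, DESeq2), and 0 had an unadjusted p under 0.05. Xylt1, the higher of the 2 xylosyltransferases that attach the first sugar to the core protein, averaged 6.42 CPM per kilobase and ran from 52.8 to 70.0 CPM over the 7 mice. Xylt2 ran from 2.88 to 5.32 CPM. Both groups overlapped for both genes.

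Among the genes that extend the heparan sulphate chain, Ext1 rose and the other 4 were not called. Ext1 encodes a subunit of the heparan sulphate polymerase and lies on chromosome 15 (chr15:53064038-53346159, minus strand, mm10). Its level was 37.6, 27.7 and 31.5 CPM in vehicle 1 to 3 and 51.6, 47.9, 42.4 and 55.2 CPM in EB 1 to 4. Every EB mouse was above every vehicle mouse, with EB 3 nearest to vehicle 1. The rise was 1.53-fold (log2 0.61 ± 0.12 SE, edgeR adjusted p = 0.0283). The call was lost in edgeR without vehicle 2 (adjusted p = 0.105), vehicle 3 (0.148), EB 1 (0.112), EB 2 (0.0743) or EB 4 (0.0852). Ext2, the partner subunit, varied most from mouse to mouse within EB among the genes of at least 1 CPM per kilobase. It stood at 52.7, 29.0 and 51.7 CPM with vehicle and at 55.0, 67.0, 120.3 and 38.8 CPM in EB 1 to 4. EB 3 was far above the rest and EB 4 was below 2 of the vehicle mice, and the log2 change of 0.66 ± 0.46 (SE) had an edgeR adjusted p of 0.769. Extl2, an EXT-like transferase, had the highest level of this group, 21.5 CPM per kilobase, and ran from 66.6 to 86.1 CPM. Extl3, which adds the first glucosamine of the heparan chain, ran from 92.9 to 109.7 CPM, and Extl1 from 5.48 to 9.25 CPM.

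The NDST enzymes replace acetyl groups on glucosamine with sulphate, the step on which later heparan sulphate modifications depend. Ndst3 rose, and Ndst1, Ndst2 and Ndst4 were not called. Ndst3 (chr3:123526166-123690853, minus strand, mm10) stood at 32.5, 35.4 and 36.2 CPM in vehicle 1 to 3 and at 62.2, 48.5, 69.0 and 57.7 CPM in EB 1 to 4. The groups were well apart, and EB 3 was the highest mouse. The rise was 1.71-fold (log2 0.77 ± 0.12 SE, edgeR adjusted p = 0.00426), and it stayed called under each of the 17 alternatives run for this gene, with a highest adjusted p of 0.0314. The paralogs ran within narrow ranges that overlapped between groups: 53.4 to 63.6 CPM for Ndst1, 7.82 to 9.65 CPM for Ndst2 and 65.3 to 76.9 CPM for Ndst4.

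As a share of the summed CPM per kilobase of the 4 genes, Ndst3 went from 19.5% ± 1.01 (SD, n = 3) with vehicle to 28.9% ± 3.44 (SD, n = 4) with EB. Its share was 18.4%, 20.4% and 19.8% in the vehicle mice and 29.9%, 24.7%, 32.9% and 28.1% in EB 1 to 4. Ndst4 held 33.3% ± 1.12 (SD, n = 3) of that sum with vehicle and 28.5% ± 3.08 (SD, n = 4) with EB, and Ndst1 held 36.8% ± 0.43 and 33.5% ± 2.74. These shares come from the values that already entered the comparison of groups and were not tested.

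Glce had the highest level among these enzymes per kilobase. It stood at 171.6, 177.6 and 164.0 CPM with vehicle and at 157.6, 159.7, 129.3 and 139.1 CPM with EB. All EB mice lay below all vehicle mice, but the gap between the groups was narrow. Its log2 difference was -0.22 ± 0.08 (SE), with an edgeR adjusted p of 0.356.

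None of the 8 heparan sulphate O-sulphotransferases was called in edgeR. Of the 8 log2 changes 7 were negative, beside 9481 of all 18387 genes tested. The negative changes of Hs3st1 (-0.02), Hs3st2 (-0.06) and Hs6st3 (-0.21) turned positive in some alternative setting. An unadjusted p under 0.05 was found for 2 of the 8 genes, against 9.04% of all genes, and DESeq2 called 1 of the 8. Hs3st5 makes 3-O-sulphated heparan sulphate. It stood at 22.7, 29.1 and 20.8 CPM in vehicle 1 to 3 and at 12.8, 16.1, 18.5 and 11.2 CPM in EB 1 to 4. All EB mice were below all vehicle mice, with EB 3 nearest to them. The log2 difference was -0.73 ± 0.17 (SE) with an edgeR adjusted p of 0.0833. DESeq2 gave an adjusted p of 0.00434, edgeR without the filter on low counts gave 0.00035, and edgeR without EB 3 gave 0.0428. Its share of the 4 Hs3st genes, per kilobase, was 9.78% ± 0.834 (SD, n = 3) with vehicle and 6.59% ± 1.15 (SD, n = 4) with EB.

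Hs2st1, which sulphates iduronic acid, stood at 156.0, 175.1 and 154.9 CPM with vehicle and at 149.4, 144.8, 143.3 and 124.9 CPM with EB. The groups did not overlap, and the log2 difference was -0.20 ± 0.08 (SE, edgeR adjusted p = 0.406). Hs3st4 ran from 117.6 to 152.0 CPM and held 74.6% ± 1.05 (SD, n = 3) of the Hs3st sum with vehicle and 76.5% ± 2.48 (SD, n = 4) with EB. The remaining genes of this group overlapped between vehicle and EB. Over all mice Hs3st1 ran from 14.4 to 21.3 CPM, and Hs3st2, a low gene, from 1.22 to 2.25 CPM. The 6-O-sulphotransferases Hs6st1, Hs6st2 and Hs6st3 ran from 14.8 to 19.2, 97.2 to 135.1 and 10.9 to 19.1 CPM.

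The extracellular sulphatases Sulf1 and Sulf2 remove 6-O-sulphate from finished heparan chains and so alter growth factor binding. Sulf2 had the higher level, 18.7 CPM per kilobase, and ran from 94.3 to 127.4 CPM. Sulf1 stood at 123.7, 126.2 and 91.2 CPM with vehicle and at 101.3, 82.7, 99.97 and 89.7 CPM with EB. Vehicle 3 lay among the EB mice, and the log2 difference was -0.28 ± 0.11 (SE, edgeR adjusted p = 0.426).

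No gene of chondroitin chain synthesis was called by any of the 3 tools (edgeR, limma-voom, DESeq2). In edgeR 2 of the 6 had an unadjusted p under 0.05, against 9.04% of all genes. Csgalnact1, which starts the chondroitin chain on the linker, stood at 23.2, 24.3 and 25.9 CPM with vehicle and at 18.7, 16.7, 20.3 and 18.6 CPM with EB. The groups were apart and each was tight, and the log2 difference was -0.40 ± 0.11 (SE, edgeR adjusted p = 0.181). Its paralog Csgalnact2 ran from 11.7 to 16.5 CPM and overlapped between groups. Chsy3, a chondroitin synthase, stood at 4.97, 6.97 and 5.86 CPM with vehicle and at 4.70, 3.85, 4.46 and 4.28 CPM with EB. The highest EB mouse was just below the lowest vehicle mouse (log2 -0.47 ± 0.20 SE, edgeR adjusted p = 0.506). Chsy1, the highest synthase gene of this group at 5.36 CPM per kilobase, ran from 17.8 to 27.3 CPM. The polymerising factors Chpf and Chpf2 ran from 16.6 to 23.4 and from 8.09 to 11.3 CPM. Exons of Smarcd3 on the opposite strand cover 44.1% of those of Chpf2, and since the use of strand in counting is not given in the sources used here, reads of these genes may not be told apart.

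Chst15 had the largest fold rise of the set. It encodes the transferase that adds a second sulphate, on carbon 6, to N-acetylgalactosamine already sulphated on carbon 4, which makes the disulphated unit known as chondroitin sulphate E. The gene lies on chromosome 7 (chr7:132235780-132317228, minus strand, mm10). Its level was 15.6, 9.76 and 11.9 CPM in vehicle 1 to 3 and 56.6, 31.4, 30.0 and 51.6 CPM in EB 1 to 4. No mice overlapped, and EB 1 and EB 4 stood well above EB 2 and EB 3. The mean went from 12.4 ± 2.97 CPM (SD, n = 3) to 42.4 ± 13.7 CPM (SD, n = 4), a 3.42-fold rise (log2 1.78 ± 0.28 SE, edgeR adjusted p = 0.0205). The edgeR call was lost without vehicle 2 (adjusted p = 0.169), without vehicle 3 (0.133) and with no filter on low counts (0.125), while the log2 change stayed between 1.62 and 1.78 in these fits. The antisense gene Gm10584 overlaps 17.9% of the Chst15 exons and had 0 to 25 counts per library, against 270 to 1733 for Chst15.

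Chst11 and Chst12 sulphate carbon 4 of N-acetylgalactosamine, the step before that of Chst15. Chst11 stood at 53.2, 52.5 and 54.3 CPM with vehicle and at 87.6, 66.9, 60.6 and 85.5 CPM with EB. The vehicle mice were nearly equal and all EB mice were above them. The log2 difference was 0.50 ± 0.12 (SE) with an edgeR adjusted p of 0.0975. DESeq2 gave 0.00568, edgeR with no filter on low counts 0.000886 and edgeR without EB 3 0.0248. Chst12 ran from 7.85 to 8.72 CPM with vehicle and from 5.92 to 7.06 CPM with EB, with no overlap and an edgeR adjusted p of 0.551.

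The remaining genes of this group were Chst3, Chst7, Chst14 and Ust. Chst3 stood at 1.91, 3.90 and 1.63 CPM with vehicle and at 0.719, 0.893, 0.463 and 1.69 CPM with EB, on 11 to 123 counts. EB 4 lay among the vehicle mice, and the log2 difference of -1.46 ± 0.45 (SE) had an edgeR adjusted p of 0.219, or 0.0189 with no filter on low counts. Chst14, which sulphates dermatan, stood at 1.17, 0.412 and 0.220 CPM with vehicle and at 1.54, 0.863, 1.39 and 1.48 CPM with EB, on 5 to 47 counts. Vehicle 1, the library high in fibroblast markers, lay among the EB mice, and the log2 difference was 1.11 ± 0.51 (SE, edgeR adjusted p = 0.546). Without vehicle 1 the log2 difference was 1.95 (edgeR adjusted p = 0.258). The part of those markers in it was not tested. Chst7 ran from 0.233 to 0.801 CPM, on 6 to 26 counts. Ust, which sulphates uronic acid, ran from 22.5 to 30.3 CPM with overlapping groups.

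Per kilobase, the make-up of these 7 sulphotransferase genes differed between the groups of mice. Chst15 held 8.42% ± 1.61 (SD, n = 3) of their sum with vehicle and 21.1% ± 3.37 (SD, n = 4) with EB. Chst12 held 16.3% ± 1.43 with vehicle and 9.53% ± 0.74 with EB, and Ust held 27.0% ± 1.77 and 19.2% ± 3.47. Chst11 was the largest in both groups, at 44.5% ± 1.95 and 46.7% ± 1.80. A share falls when another gene of the sum rises, so the lower share of Ust stands beside a nearly equal CPM.

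**Figure D3:**
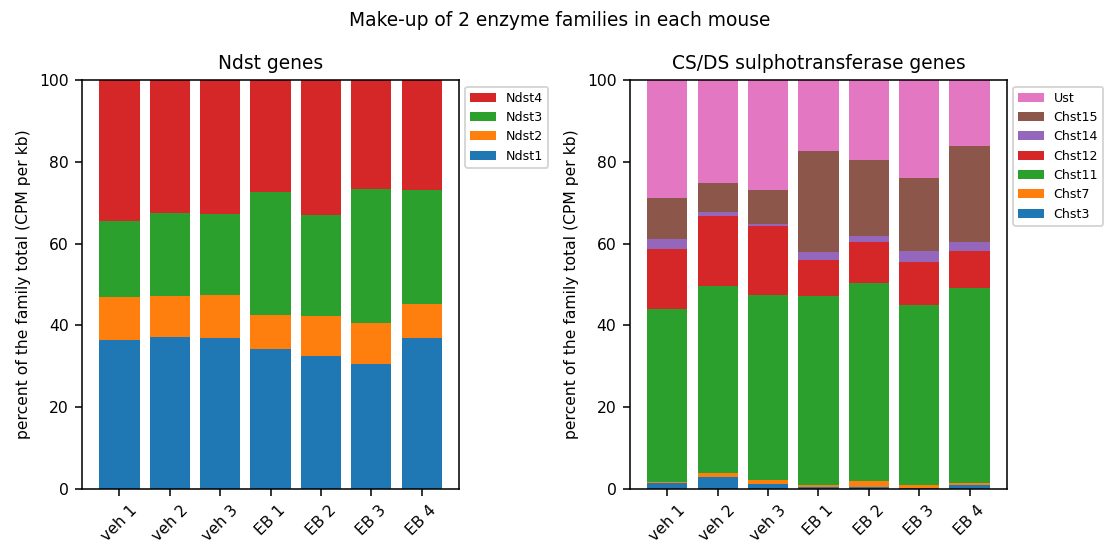
Make-up of the 4 Ndst genes and of the 7 chondroitin and dermatan sulphotransferase genes in each of the 7 mice, as percent of the family's summed CPM per kilobase. The Ndst3 band is 19.5% on average with vehicle and 28.9% with EB, and the Chst15 band 8.42% and 21.1%.

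The dermatan epimerases turn glucuronic into iduronic acid in chondroitin chains. Dse stood at 8.16, 5.45 and 5.59 CPM with vehicle and at 2.68, 3.48, 5.48 and 5.02 CPM with EB. EB 3 reached the lower vehicle mice, and the log2 difference was -0.64 ± 0.26 (SE, edgeR adjusted p = 0.454). The highest level was in vehicle 1, where the summed fibroblast and mural markers were also highest, and their part in the difference was not tested. Without vehicle 1 the log2 difference of Dse was -0.44 (edgeR adjusted p = 0.663). None of those 12 markers was at 0 in any library, all 12 had negative log2 changes, and edgeR called none of them. Their sum was 716, 181 and 282 CPM in vehicle 1 to 3 and 193, 221, 305 and 428 CPM in EB 1 to 4. Vehicle 1 thus lay above every EB mouse, vehicle 2 below every EB mouse and vehicle 3 among them. Dsel had the higher level of the pair, 4.80 CPM per kilobase, and ran from 23.7 to 33.0 CPM with overlapping groups.

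Of the 4 carbohydrate sulphotransferases of other glycans, Chst1 rose. The gene lies at chr2:92599707-92615250 on the plus strand (mm10). Its level was 54.2, 50.1 and 55.4 CPM in vehicle 1 to 3 and 78.2, 71.3, 67.6 and 73.9 CPM in EB 1 to 4. Both groups were tight and did not overlap. The rise was 1.37-fold (log2 0.45 ± 0.08 SE, edgeR adjusted p = 0.0181). The call was lost with scaling by library totals only (adjusted p = 0.154), and without vehicle 1 (0.0511), vehicle 2 (0.0639), vehicle 3 (0.0668), EB 1 (0.0862) or EB 2 (0.0552). Leaving out both vehicle 1 and EB 4 gave 0.0842.

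Chst8, which sulphates N-acetylgalactosamine on the sugar chains of pituitary hormones, stood at 8.44, 8.55 and 9.86 CPM with vehicle and at 14.6, 13.8, 10.9 and 12.8 CPM with EB. All EB mice were higher, and the log2 difference was 0.55 ± 0.15 (SE, edgeR adjusted p = 0.169). Chst2 ran from 161.7 to 224.2 CPM, with EB 4 highest, and Chst10, which makes the HNK-1 epitope of neural adhesion molecules, from 32.4 to 47.0 CPM. Both overlapped between groups.

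**Figure D4:**
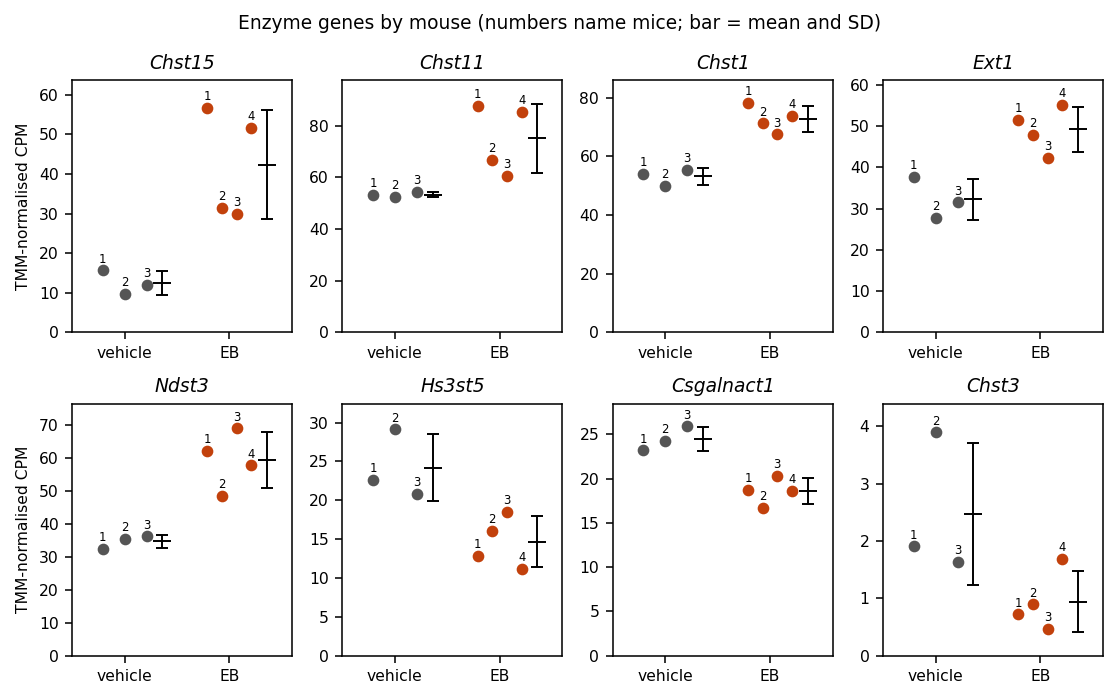
TMM-normalised CPM of 8 enzyme genes in each mouse, with the mean and SD of 3 vehicle and 4 EB mice; the genes were picked after their values were seen. Chst15, Chst11, Chst1, Ext1 and Ndst3 are higher in every EB mouse, Hs3st5 and Csgalnact1 lower in every EB mouse, and Chst3 overlaps.

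Within the EB group, Chst15, Chst11 and Chst1 shared 1 order of mice, from EB 1 through EB 4 and EB 2 down to EB 3, and Ext1 had EB 4 before EB 1. This was noticed after the values were seen. Genes that were not called also had the order of Ext1. Ndst1 stood at 59.59, 53.45, 53.42 and 63.58 CPM in EB 1 to 4. Chsy1 stood at 23.49, 21.96, 18.37 and 27.29 CPM in the same mice. Hs3st5 had the reverse order. With 4 mice few orders are possible, so nothing is read from a shared order. The summed CPM of 7 astrocyte markers, with none at 0, was 6417, 5868, 5198 and 6575 in EB 1 to 4, the same order as Ext1. It was 5992 to 6670 in the vehicle mice, which covers the EB mice except EB 2 and EB 3. The order was not particular to astrocyte markers. The 6 oligodendrocyte precursor markers, at 178, 176, 152 and 190 CPM in EB 1 to 4, shared it. The 6 neuronal markers, at 4768, 4904, 5343 and 4304 CPM, had the reverse order. Slc1a2, the largest astrocyte marker, was higher in EB 1 (4535 CPM) than in EB 4 (4398 CPM). The part of these sums in the levels of the enzyme genes was not tested. Ndst3 did not follow the order of Ext1, since EB 3 was its highest mouse. Summed microglial markers were 105 to 109 CPM with vehicle and 87.3 to 103 CPM with EB, and 8 endothelial markers summed to 105 to 142 and 87.2 to 112 CPM. The markers within each list did not all move together. Of the microglial markers 4 had negative and 2 positive log2 changes, and of the endothelial markers 6 and 2. An unadjusted p under 0.05 in edgeR was found for 5 of the 8 endothelial markers, 4 lower and 1 higher. It was found for 1 of the 6 microglial markers, lower with EB, beside 9.04% of all genes. None was called by edgeR, and DESeq2 called 2 endothelial markers and 1 microglial marker. P2ry12 stood at 40.3 to 42.1 CPM with vehicle and 27.7 to 34.7 with EB, but Csf1r at 30.9 to 34.0 and 30.6 to 36.8. The endothelial marker Kdr stood at 7.25 to 9.73 CPM with vehicle and 8.68 to 14.9 with EB. None of the 6 microglial or 8 endothelial markers was at 0 in any library, and their part in the lower levels with EB was not tested. The 7 arcuate markers, with Kiss1 at 0 in some library, summed to 91.3 to 117 CPM with vehicle and 68.3 to 92.2 CPM with EB. Isl1 was called lower by edgeR and carried that difference, at 53.3 to 87.8 CPM with vehicle and 26.3 to 33.8 CPM with EB. The other 5 arcuate markers tested had positive log2 changes, and the median over the 6 tested was 0.43. The 6 neuronal markers summed to 4607 to 5060 CPM with vehicle and to 4304 to 5343 CPM with EB.

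The wider pathway was followed through 81 further genes, of which 74 were tested and 0 were called by edgeR. An unadjusted p under 0.05 was found for 6 of the 74, beside 9.04% of all genes. DESeq2 called 2 of them and limma-voom 0. The median log2 change of the 74 genes was -0.06, beside -0.01 over all genes. Of the 74, 21 were positive, beside 8906 of all 18387 genes tested. Slc35d1, which carries nucleotide sugars for chondroitin synthesis into the endoplasmic reticulum, stood at 17.3, 23.0 and 18.5 CPM with vehicle and at 30.8, 29.6, 28.5 and 25.7 CPM with EB. All EB mice were higher, with a log2 difference of 0.55 ± 0.13 (SE) and adjusted p-values of 0.0682 in edgeR and 0.00437 in DESeq2. Sdc2, a syndecan core protein that carries heparan sulphate, stood at 173.5, 183.9 and 167.5 CPM with vehicle and at 147.6, 150.0, 138.4 and 147.7 CPM with EB. All EB mice were lower, with a log2 difference of -0.26 ± 0.07 (SE) and adjusted p-values of 0.109 in edgeR and 0.0171 in DESeq2.

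In the other lists of the pathway the gene with the smallest p was as follows. Fam20b, the kinase of the linker region, had a log2 difference of -0.08 ± 0.09 (SE, edgeR adjusted p = 0.872). For the sulphotransferase Chst9 it was -0.56 ± 0.26 (SE, edgeR adjusted p = 0.543). Acan, the aggrecan core protein of perineuronal nets, was low at 1.09 to 1.80 CPM with vehicle and 1.77 to 2.37 CPM with EB (edgeR adjusted p = 0.633). Tnc, the matrix protein tenascin-C, ran from 6.56 to 10.7 CPM with vehicle and from 4.51 to 6.83 CPM with EB (log2 -0.70 ± 0.22 SE, edgeR adjusted p = 0.235). Arsb, a lysosomal sulphatase that degrades dermatan and chondroitin sulphate, ran from 37.2 to 41.2 CPM with vehicle and from 32.4 to 36.6 CPM with EB (edgeR adjusted p = 0.558).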

How the data were processed

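The ventrolateral ventromedial hypothalamus of 7 ovariectomized female mice was profiled, 3 after vehicle and 4 after 1 µg of EB, at 4 hours. The kit was Tecan/NuGEN Trio RNA-Seq, per the labels. What the authors deposited are raw, whole-number counts by gene symbol, and HISAT2, HTSeq, DESeq2 and mm10 are named in the submitters' processing notes. Tool versions, annotation, strand setting and treatment of multiply mapped reads were not given in the sources used here.

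Counts of all 48321 genes were filtered with filterByExpr (minimum count 10), which kept 18387 of 31222 genes with any count, scaled by TMM (factors 0.859 to 1.09) and tested with edgeR 4.0.16 (quasi-likelihood, robust) in R 4.3.3 with no covariate. P-values were adjusted by Benjamini-Hochberg over all tested genes and called at 0.05. Standard errors are the absolute log2 change over the square root of F. The biological coefficient of variation was 22.3%. Replicate pairs differed by 18.6 to 185 chi-square units per degree of freedom, so none was a repeat of another.

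The fit was tested on simulated data for EB against vehicle (3 draws, a mean of 17707 genes): it recovered 34.8% of 1.5-fold, 57.2% of 2-fold and 80.3% of 4-fold changes, and 9.95% of its calls were false. Exon lengths and positions came from GENCODE M21 gene models of mm10 and promoters from RefSeq GRCm38.p6. Alternatives were DESeq2 1.42.0, limma-voom (limma 3.58.1), other scalings, filters and thresholds, and each mouse left out in turn. An earlier form of the quasi-likelihood fit and the joint removal of vehicle 1 and EB 4 were added after seeing the data. Enzymes were given in full when called or at an unadjusted p under 0.05, the highest per kilobase in each role by level and the rest by range. Outside this rule, Ext2 was also given in full, for its spread within EB. Pathway genes were named when called, otherwise the 1 with the smallest p per list. The members and lists were chosen with earlier results of these data known. Figures used matplotlib 3.10.9 in Python 3.11.15.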

Additional observations from a re-analysis of the deposited data

Results flagged for a closer look

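In the EB group, Hs6st1, a heparan sulphate 6-O-sulphotransferase, stood at 14.76 CPM in EB 2 and at 17.94 to 18.10 CPM in the other 3 mice. The gap between EB 2, the lowest mouse, and the next was large for a group of 4 by Dixon's criterion (critical value 0.829). It was the 1 flagged value among 41 genes tested in the EB group, and chance alone flags about 1 in 20 groups. The 3 vehicle mice were too few to be tested, and they ran from 14.9 to 19.2 CPM.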

How the results depend on the processing

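No paired analysis was possible because the mice were numbered here in accession order and nothing in the labels ties a vehicle mouse to an EB mouse. Over all genes, 137 were called higher and 38 lower. DESeq2 gave 232 and 124, and no filter on low counts gave 240 and 135. Scaling by library totals only gave 17 lower, and an adjusted p under 0.1 gave 64 lower. With 1 mouse left out in turn, 78 to 122 were higher and 20 to 45 lower. Of the 41 enzymes, 4 were called higher and 0 lower. With 1 mouse left out, 1 to 5 were higher (1 without vehicle 2 or vehicle 3, 2 without EB 1 or EB 2) and 0 to 1 lower (1 without EB 3). Lower calls numbered 1 with DESeq2, 2 with no filter and 1 at an adjusted p under 0.1. Leaving out vehicle 1 and EB 4 together, chosen after seeing the data, gave 3 higher. Of the 74 pathway genes, 0 were called in either direction. Calls higher numbered 1 with DESeq2, 1 with no filter, 1 at an adjusted p under 0.1 and 0 to 1 with a mouse left out (1 without vehicle 2), and DESeq2 called 1 lower. The cause of these shifts was not tested. For the 15 enzymes given in full, 255 values were compared: 233 kept their side of the threshold, 15 lost a call, 7 gained one and 0 reversed. Chst14 had no adjusted p in DESeq2 and was counted among the 233 as not called. Of the other 26 enzymes, 14 changed sign in some setting and 0 were called in any. Chst7, which is among these 26, had no adjusted p in DESeq2 either. Scaling by library totals only turned the split of 18 positive and 23 negative enzymes into 20 and 21. At this depth and with 3 against 4 mice, changes of genes below 1 CPM per kilobase had wide intervals.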
